A study of Mus musculus with 51 samples.

Results

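Single cloned mouse morulae were compared with single morulae made by in vitro fertilization (IVF). The comparison took in every array whose label gave the Sertoli cell cloned embryo or the IVF embryo at the morula stage, which were 5 clone arrays and 3 IVF arrays, or 8 of the 51 arrays of the series. Every clone morula carried a nucleus of a Sertoli cell, the somatic supporting cell of the seminiferous tubule, taken from a B6CBF1 donor and placed in a B6D2F1 oocyte. Every IVF morula came from a B6D2F1 × B6D2F1 cross. The series also held metaphase II (MII) oocytes and clone and IVF embryos of 5 other stages. Clones and IVF embryos shared the culture, KSOM medium under 5% CO2 and 5% O2, and the morulae were collected 72 hours after activation of the clones or addition of sperm. Nuclear strain and method of production differ together between the groups and cannot be told apart. The labels give no sex for the IVF embryos, whereas Sertoli cell nuclei are male.

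At the morula stage the mouse embryo has compacted, so that its cells adhere into a ball with an outer epithelial layer and an inner group of cells. Outer cells turn on Cdx2 and keratins through the transcription factor Tead4 and become trophectoderm, while inner cells turn on Sox2 and give rise to the inner cell mass. In a female embryo 1 X chromosome is silenced by Xist, a long noncoding RNA that coats the chromosome it is transcribed from. In mouse clones Xist is known to be transcribed also from an X chromosome that should stay active.

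Each array gave 1 value per gene for 18193 genes, from that probe set of the gene whose SD over the 51 arrays was largest. The deposited values are on a log2 scale and were centred per probe set near the middle of the 51 arrays, so a value says how far an embryo lies above or below that middle and not how abundant a transcript is. A difference of 1 is a 2-fold difference. The embryos carried most of the morula markers compared. Against MII oocytes, the clone and IVF means were 8.73 and 8.61 higher for Nanog, 6.55 and 6.54 higher for Cdx2, 6.03 and 5.92 higher for Tead4, and 7.19 and 8.26 higher for Krt8. Krt18, Pou5f1 and Tfap2c were higher in both groups as well, and Gata3 by only 1.6 and 1.03. Cdh1 went the other way, with differences from MII oocytes of -0.861 in clones and -0.787 in IVF embryos. The hybridization control probe sets averaged 0.471 in clones and 0.129 in IVF embryos on the centred log2 scale (exact two-sided permutation test, p = 0.25). The 3' minus 5' difference of Actb averaged -0.535 in clones and -0.708 in IVF embryos (exact two-sided permutation test, p = 0.679), and that of Gapdh -0.887 and -0.807 (p = 0.75). All 3 measures had an adjusted p of 0.75.

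Clone morulae had higher transcript levels of the X-linked homeobox gene Rhox5 and the surface protein gene Ly6e than IVF morulae. Their levels of Cthrc1, Rab38, H2-K1 and 4 X-linked genes were lower. In all, 30 of 18193 genes (0.165%) passed an adjusted p of 0.05 in limma's moderated test, with 14 genes (0.077%) higher in clones and 16 (0.0879%) lower. Of these, 10 of the higher and 15 of the lower genes differed by at least 2-fold. In the fits of the other stages, each with 5 clone and 3 IVF arrays, 1148 genes passed at the 1-cell, 431 at the 2-cell, 412 at the 4-cell, 1204 at the 8-cell and 1125 at the blastocyst stage.

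The number of calls rested on single embryos. It was 11, 35, 6, 65 and 8 without clone 1, 2, 3, 4 or 5, and 59, 53 and 46 without IVF embryo 1, 2 or 3, and 6, 21, 6, 25, 7, 16, 16 and 16 of these were among the 30. Quantile normalization of the 8 arrays left 23 calls, 8 higher and 15 lower, against 14 and 16 as deposited. With 1 fit over all 51 arrays, whose shared spread draws on every stage, 608 genes (3.34%) passed, 219 (1.2%) higher and 389 (2.14%) lower, and 21 of the 30 were among them. At an unadjusted p of 0.05, 759 genes (4.17%) were higher and 1061 (5.83%) lower. The values of the 5 clones and the 3 IVF embryos did not overlap at all for 1548 genes (8.51%), of which 822 (4.52%) were higher in clones and 726 (3.99%) lower. The median difference over all genes was 0.012 on the log2 scale.

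**Figure D1:**
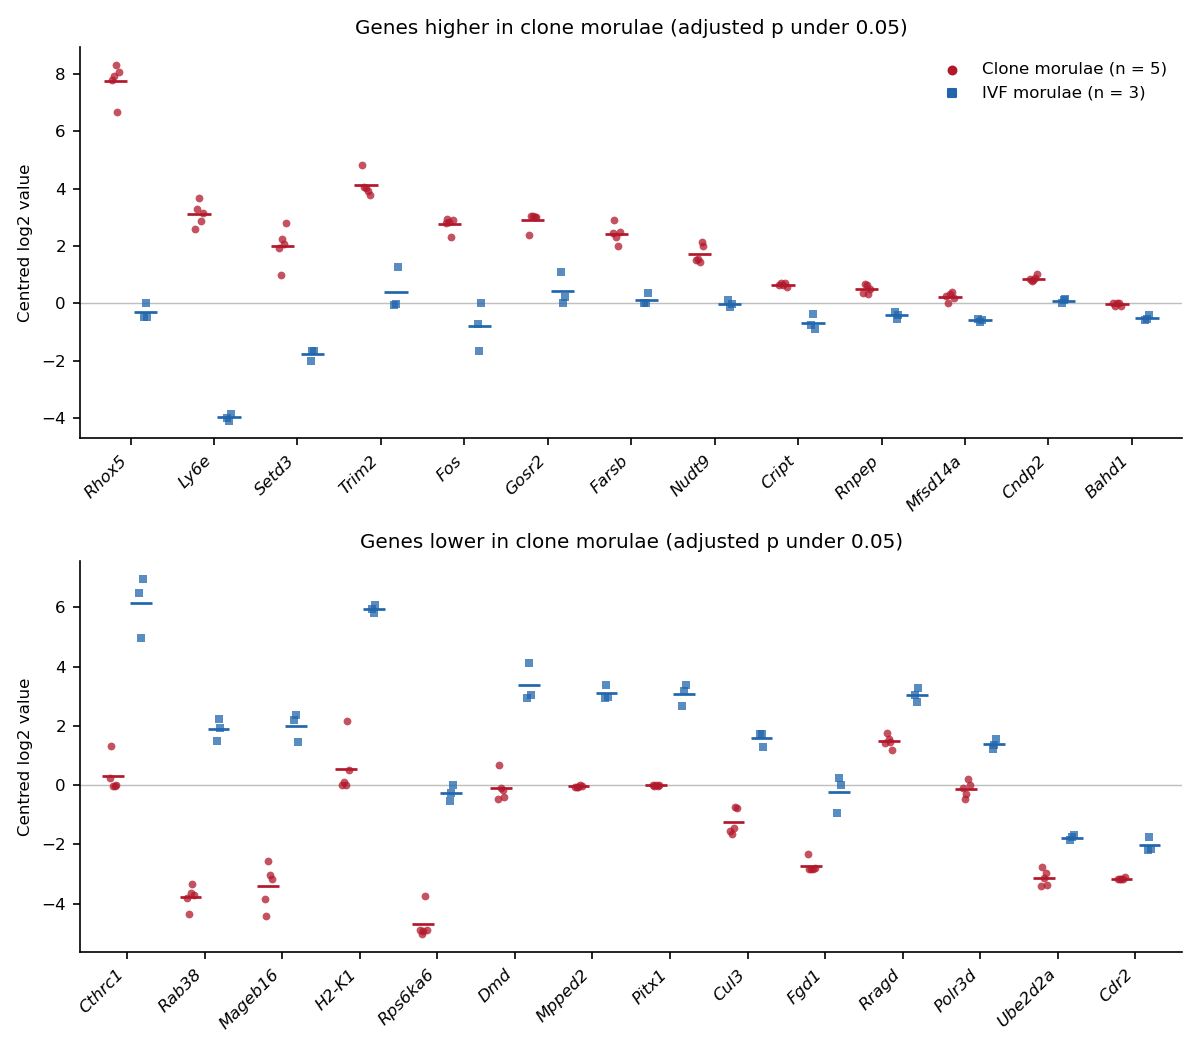
Centred log2 values of the 13 named genes higher (top) and the 14 named genes lower (bottom) in clone morulae at an adjusted p under 0.05. Each point is 1 embryo, red circles are clones (n = 5), blue squares are IVF embryos (n = 3), and bars are group means. Groups that do not overlap were a condition for entering a gene here, so the separation is not a finding about the 27 genes.

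Rhox5 stood highest. It encodes a homeodomain protein of the reproductive homeobox cluster and is known to be expressed in placenta and in Sertoli cells. It had 7.79, 7.94, 8.32, 6.66 and 8.06 in clones 1 to 5, against -0.48, 0 and -0.47 in IVF embryos 1 to 3. Every clone lay far above every IVF embryo, and the difference was 8.07 ± 0.38 (SE, limma adjusted p = 0.000823). The gene was called in 17 of 18 alternative analyses.

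Ly6e encodes a lipid-anchored surface protein that serves in the mouse placenta as receptor of syncytin-A. It had 2.60, 3.30, 3.66, 2.88 and 3.15 in the clones and -3.99, -4.10 and -3.85 in the IVF embryos, so the groups were as tight as they were far apart. The difference was 7.10 ± 0.23 (SE, limma adjusted p = 0.000181), and it too was called in 17 of 18 alternatives. A second Ly6e probe set differed in the same direction by 0.63.

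Trim2, a ubiquitin ligase known from neurons, had 4.81, 4.07, 4.02, 3.92 and 3.76 in clones against -0.057, -0.042 and 1.26 in IVF embryos and rose by 3.73 ± 0.38 (SE, limma adjusted p = 0.0283). The 5 other Trim2 probe sets were also higher in clones, by 0.0087 to 0.95. Fos, the immediate-early component of the AP-1 transcription factor, had 2.81, 2.94, 2.83, 2.33 and 2.91 in clones and -0.72, -1.66 and 0 in IVF embryos. It rose by 3.56 ± 0.36 (SE, limma adjusted p = 0.0283), and no second probe set was available.

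Nudt9, which hydrolyses ADP-ribose, rose by 1.75 (limma adjusted p = 0.0334), with clones at 1.43 to 2.15 and IVF embryos at -0.15 to 0.10. Cript, named for binding the PDZ domains of synaptic scaffolds, rose by 1.33 (adjusted p = 0.0226), with the clones at 0.56 to 0.70 and the IVF embryos at -0.92 to -0.36. The other probe sets of Nudt9 and Cript differed by only 0.016 and 0.072. Smaller differences were those of the aminopeptidase gene Rnpep at 0.92, the dipeptidase gene Cndp2 at 0.78 and the heterochromatin protein gene Bahd1 at 0.48 (limma adjusted p = 0.0367, 0.021 and 0.0258). The other higher gene carries only a clone number as its symbol.

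Probe sets disagreed for several called rises. Setd3, an actin histidine methyltransferase, rose by 3.78 (limma adjusted p = 0.0283) on the probe set used, with 1.93, 0.97, 2.24, 2.05 and 2.79 in clones and -2.03, -1.65 and -1.67 in IVF embryos, while its other probe set differed by -0.32. Gosr2, a Golgi SNARE, rose by 2.47 on one probe set and differed by -0.33 on the other. Farsb, a subunit of phenylalanyl-tRNA synthetase, rose by 2.30, with differences of -0.19, 0.0047 and -0.095 on its 3 other probe sets. Mfsd14a, a transporter-like membrane protein gene, rose by 0.82 against -0.35 on its other probe set (limma adjusted p = 0.0405, 0.0226 and 0.0319 on the probe sets used).

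Among the lower genes, Cthrc1 had the largest difference. It encodes a secreted protein with a collagen repeat that acts in planar cell polarity signalling. The clones had 0.25, 1.33, -0.042, -0.014 and 0.0037, against 6.50, 4.99 and 6.98 in the IVF embryos, and clone 2 was the only clone above 1. The gene fell by 5.85 ± 0.53 (SE, limma adjusted p = 0.0226) and was called in 12 of 18 alternatives.

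Rab38, a small GTPase of lysosome-related organelles such as melanosomes, had -3.79, -4.35, -3.65, -3.34 and -3.69 in clones and 1.50, 2.25 and 1.94 in IVF embryos. It fell by 5.66 ± 0.26 (SE, limma adjusted p = 0.000823) and kept its call in 17 of 18 alternatives, and its second probe set differed by -2.98. Mpped2, a metallophosphoesterase gene, was close to 0 in all clones (-0.060 to 0) and at 2.94, 3.39 and 2.96 in IVF embryos, a fall by 3.14 (adjusted p = 0.000181). Pitx1, a homeodomain factor of hindlimb and pituitary, showed the same form, with clones at -0.018 to 0.0053 and IVF embryos at 2.67, 3.17 and 3.39. Its fall by 3.09 (limma adjusted p = 0.000823) was on 1 probe set, and the other differed by 0.29.

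Genes of protein turnover and growth control were among the rest. Cul3, the scaffold of a large family of ubiquitin ligases, had -1.55, -1.65, -1.45, -0.75 and -0.76 in clones and 1.75, 1.72 and 1.28 in IVF embryos, and fell by 2.81 ± 0.27 (SE, limma adjusted p = 0.0258). All 4 other Cul3 probe sets were lower in clones, with differences of -2.42 to -0.15. Ube2d2a, a ubiquitin-conjugating enzyme, fell by 1.36 (adjusted p = 0.0433), with 3 of 4 other probe sets lower as well. Rragd, a Rag GTPase of the amino acid branch of mTORC1 signalling, fell by 1.56, with the clones at 1.19 to 1.77 and the IVF embryos at 2.80 to 3.29 (limma adjusted p = 0.0283). Polr3d, a subunit of RNA polymerase III, fell by 1.50 on 1 probe set (adjusted p = 0.0355) and differed by 0.24 on the other. Cdr2, the onconeural antigen gene, fell by 1.13 (limma adjusted p = 0.0226), and the ribosomal protein paralog Rpl22l1 by 1.01 (adjusted p = 0.0319).

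H2-K1, a classical major histocompatibility complex class I heavy chain, fell by 5.40 ± 0.52 (SE, limma adjusted p = 0.0258). The clones had 0.0017, 0.11, -0.00093, 2.15 and 0.52 and the IVF embryos 5.96, 5.80 and 6.09, and clone 4 stood apart from the other clones without reaching the IVF range. The 3 other H2-K1 probe sets were lower in clones too, with differences of -1.55, -2.01 and -0.069. Of 14 measured genes in the class I and interferon-linked surface list, Ly6e and B2m (14.3%) were higher and H2-K1 (7.14%) lower at an unadjusted p of 0.05, against 4.17% and 5.83% of all genes. B2m, the light chain that pairs with class I heavy chains, had -0.93, -0.18, 1.22, -0.96 and -0.16 in clones and -1.72, -2.28 and -3.91 in IVF embryos (difference 2.44, limma adjusted p = 0.258), and thus ran opposite to the heavy chain. H2-D1, another class I heavy chain, had 0.48, 0.87, 2.65, 2.05 and -0.82 in clones and 2.46, 2.50 and 3.57 in IVF embryos, with a difference of -1.80 that did not pass (adjusted p = 0.545). For these genes too, nuclear strain and method of production cannot be told apart.

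The H2-K1 promoter, of the class I gene that differed most, is printed from 250 bases before to 50 after the gene start, 5′ to 3′ (RefSeq, GRCm38.p6, chr17:34000298-34000597, minus strand). Capitals mark CG dinucleotides, the bases at which mammalian DNA is methylated, and the window holds 14 of them on the printed strand, against a median of 7 over 32851 promoter windows.
H2-K1: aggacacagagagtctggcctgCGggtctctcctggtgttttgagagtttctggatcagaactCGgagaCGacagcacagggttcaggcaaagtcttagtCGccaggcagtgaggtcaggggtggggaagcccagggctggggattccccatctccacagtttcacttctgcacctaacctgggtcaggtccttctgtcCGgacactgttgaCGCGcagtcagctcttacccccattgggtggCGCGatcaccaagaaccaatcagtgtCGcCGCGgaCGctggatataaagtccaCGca

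Among X-linked genes, lower values in clone morulae outnumbered higher ones, with Rhox5 and Xist on the higher side. Of 617 X-linked genes, 98 (15.9%) were lower and 10 (1.62%) higher at an unadjusted p of 0.05, against 5.83% lower and 4.17% higher over all genes and 960 (5.52%) lower and 745 (4.28%) higher of 17404 autosomal genes. At an adjusted p of 0.05, 1 X-linked gene was higher, Rhox5, and 4 lower, Mageb16, Rps6ka6, Dmd and Fgd1. Over all genes the shares were 0.077% higher and 0.0879% lower. In the fit over all 51 arrays 60 of the 617 were lower and 6 higher, against 389 (2.14%) and 219 (1.2%) of all 18193 genes.

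The shift was not the same on every summary. Over each embryo's X-linked minus autosomal genes, the median difference was -0.0023 in clones and 0.0005 in IVF embryos, since most genes hardly vary, and did not pass an exact two-sided permutation test over the 8 embryos (p = 0.25). The mean in place of the median was -0.17, -0.18, -0.14, -0.28 and -0.15 in clones 1 to 5, against 0.058, 0.43 and 0.0063 in IVF embryos 1 to 3. All clones lay below 0 and all IVF embryos above it. The group means were -0.186 ± 0.056 in clones and 0.165 ± 0.232 in IVF embryos (SD, n = 5 and n = 3), a difference of -0.351 (exact two-sided permutation test, p = 0.0357, the smallest that this design allows).

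IVF embryo 2 stood highest on the X-linked mean and lowest on the Y-linked gene Eif2s3y, which had 1.98, 2.34, 1.40, 1.91 and 0.81 in clones and 1.07, -5.49 and 1.77 in IVF embryos. The part of embryo sex in the X-linked difference was not tested. Without IVF embryo 2 the difference in the X-linked mean was -0.218 (exact p = 0.0952, the smallest that 5 against 2 allows). IVF embryos 1 and 3, whose Eif2s3y lay within the range of the clones, had X-linked means of 0.058 and 0.0063. The labels give no sex, so these values do not separate embryo sex from method of production.

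**Figure D2:**
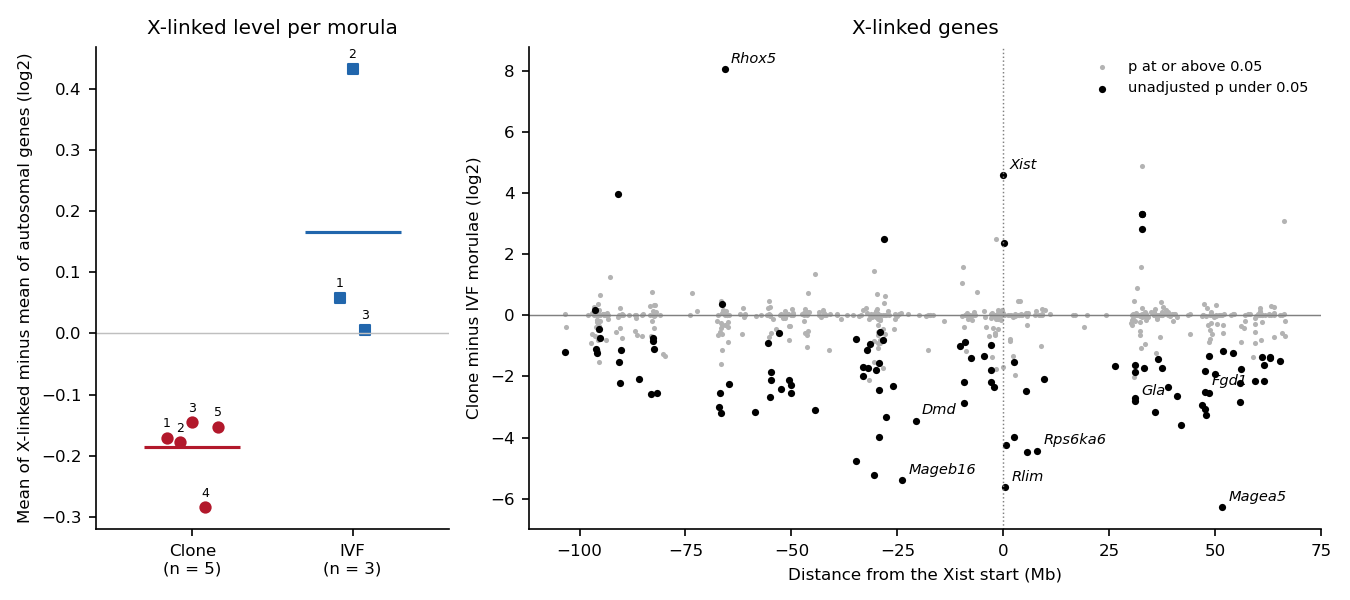
Left, the mean of 617 X-linked genes minus the mean of 17404 autosomal genes in each morula on the log2 scale, numbered by replicate, with clones (n = 5, red) from -0.28 to -0.14 and IVF embryos (n = 3, blue) from 0.0063 to 0.43; bars are group means. Right, the clone minus IVF difference of each X-linked gene against its distance from the Xist start in Mb, with genes at an unadjusted p under 0.05 in black; black points below 0 lie along the whole chromosome.

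The lower genes lay along the whole chromosome. Counted by distance from Xist, 12.5% of 144 genes more than 60 Mb before it were lower at an unadjusted p of 0.05, as were 19.2% of 104 genes 60 to 30 Mb before and 14.3% of 133 genes 30 to 0 Mb before. Beyond Xist the shares were 17.0% of 53 genes within 30 Mb and 17.6% of 182 genes at 30 to 70 Mb. Each share was above the 5.83% of all genes. The mean difference of the X chromosome was -0.38, against -0.12 to 0.073 for the autosomes. In clones the X-linked mean was 0.071 at the 1-cell, 0.035 at the 2-cell, 0.091 at the 4-cell and 0.078 at the 8-cell stage. It was -0.186 at the morula and -0.309 at the blastocyst stage. In IVF embryos it was 0.046, 0.064, 0.253, 0.244, 0.165 and 0.137 at the same stages. The clone mean was thus below the IVF mean from the 2-cell stage on. The ranges of single clone and IVF embryos overlapped at every stage before the morula. The values are centred per probe set, so the sign of a mean does not date the shift. The stage at which the groups part was not tested.

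Xist itself had 4.65, 4.09, 4.35, 3.50 and 4.41 in clones 1 to 5 and -0.45, 1.89 and -2.58 in IVF embryos 1 to 3. The groups did not overlap, and the spread among the IVF embryos was wide. The difference of 4.58 ± 0.92 (SE) did not pass over all genes (limma adjusted p = 0.125), while the 2 other Xist probe sets were higher in clones by 4.30 and 2.92. Ftx, a noncoding RNA gene of the same region, had 3.00, 1.56, 1.75, 3.23 and 1.81 in clones and -0.17, -0.023 and -0.11 in IVF embryos (difference 2.37, adjusted p = 0.105).

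Rlim encodes a ubiquitin ligase known in the mouse to promote Xist transcription by removing the repressor Rex1. It had -2.81, -4.58, -6.95, -3.89 and -5.57 in clones against 0.81, 1.62 and 0.16 in IVF embryos, and every IVF embryo lay above 0 and every clone below it. The difference of -5.62 ± 0.94 (SE) missed the threshold in the fit of 8 arrays (limma adjusted p = 0.0836) and passed in the fit of 51 arrays (adjusted p = 4.48e-08). All 4 other Rlim probe sets were lower in clones, with differences of -4.69 to -0.98. Rlim and Xist are neighbours on the X chromosome and lay on opposite sides of the comparison.

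The promoters of Xist and Rlim, which lay on opposite sides, and of Rhox5, the gene that differed most, are printed from RefSeq (GRCm38.p6), each from 250 bases before to 50 after the gene start, 5′ to 3′. The windows are chrX:103483184-103483483 on the minus strand for Xist, chrX:103981236-103981535 on the minus strand for Rlim and chrX:37754358-37754657 on the plus strand for Rhox5. Capitals again mark CG dinucleotides. Xist and Rlim hold 15 each and Rhox5 holds 5, against a median of 7 (quartiles 3 and 20) over 32851 promoter windows, of which 94.6% hold at least 1.
Xist: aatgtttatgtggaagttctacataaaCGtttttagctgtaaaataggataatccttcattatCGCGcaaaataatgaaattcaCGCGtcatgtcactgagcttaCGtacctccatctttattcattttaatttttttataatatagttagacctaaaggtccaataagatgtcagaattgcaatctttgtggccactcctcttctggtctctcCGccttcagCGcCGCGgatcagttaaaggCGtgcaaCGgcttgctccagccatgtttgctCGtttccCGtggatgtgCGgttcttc
Rlim: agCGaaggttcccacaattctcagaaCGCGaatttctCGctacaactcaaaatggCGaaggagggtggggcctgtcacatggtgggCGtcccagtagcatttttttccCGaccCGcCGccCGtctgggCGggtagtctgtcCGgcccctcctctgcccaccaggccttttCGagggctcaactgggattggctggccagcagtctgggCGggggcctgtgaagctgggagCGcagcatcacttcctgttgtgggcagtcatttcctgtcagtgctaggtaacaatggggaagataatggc
Rhox5: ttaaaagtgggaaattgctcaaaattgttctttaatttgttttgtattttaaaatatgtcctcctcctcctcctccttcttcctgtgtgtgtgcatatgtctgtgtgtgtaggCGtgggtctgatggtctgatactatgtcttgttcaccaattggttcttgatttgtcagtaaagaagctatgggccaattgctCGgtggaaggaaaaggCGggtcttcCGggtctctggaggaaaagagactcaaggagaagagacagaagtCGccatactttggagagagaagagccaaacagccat

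Some members of X-linked germline families had lower values in clones. Mageb16, a member of the melanoma antigen family known from germ cells and tumours, had -3.83, -4.42, -2.55, -3.03 and -3.15 in clones and 2.19, 2.38 and 1.46 in IVF embryos and fell by 5.41 ± 0.46 (SE, limma adjusted p = 0.0216). Magea5, of the same family, was near 0 in every clone (-0.080 to 0.29) and at 3.94, 8.96 and 6.03 in IVF embryos, a difference of -6.28 that did not pass (adjusted p = 0.0783). Tktl1, a transketolase-like gene, had -3.65, -3.09, -2.15, -1.96 and -1.88 in clones and 0.41, 2.69 and 1.23 in IVF embryos (difference -3.99, limma adjusted p = 0.0783). Of the 23 measured genes of the Xist region and the X-linked testis and germline families, 6 (26.1%) were lower and 3 (13.04%) higher at an unadjusted p of 0.05, against 5.83% and 4.17% of all genes, and their median difference was 0.0088 against 0.012 over all genes. The shares over all X-linked genes were 15.9% lower and 1.62% higher.

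Rps6ka6, an X-linked ribosomal S6 kinase, had -4.87, -5.04, -4.93, -3.75 and -4.88 in clones against -0.53, -0.27 and 0 in IVF embryos and fell by 4.43 (limma adjusted p = 0.01). Clones 1, 2, 3 and 5 lay close together, and clone 4 stood higher. The second Rps6ka6 probe set differed by only -0.18. Dmd, the dystrophin gene, had -0.45, 0.70, -0.10, -0.16 and -0.39 in clones and 2.96, 4.11 and 3.03 in IVF embryos and fell by 3.45 (adjusted p = 0.0319), although 2 of its 3 other probe sets differed by 0.026 and 0.028. Fgd1, an exchange factor for the GTPase Cdc42, had -2.34, -2.83, -2.82, -2.84 and -2.81 in clones and -0.93, 0.24 and 0 in IVF embryos and fell by 2.50 (limma adjusted p = 0.0355). The lysosomal galactosidase gene Gla had -1.33, -0.99, -1.79, -0.45 and -0.94 in clones and 1.51, 2.40 and 1.18 in IVF embryos, with a difference of -2.80 that missed the threshold (adjusted p = 0.06). The 2 other Gla probe sets differed by 0.036 and 0.069. Among 21 measured X-linked housekeeping and growth genes, Gla and the RNA helicase gene Ddx3x (9.52%) were lower at an unadjusted p of 0.05 and none was higher, with a list median of -0.39. The share lower was above the 5.83% of all genes and below the 15.9% of all X-linked genes.

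Most lineage genes of the morula had overlapping values in clones and IVF embryos, while Sox2 and Klf2 did not overlap. Pou5f1, the pluripotency factor of the whole early embryo, had 0.51, 1.23, 0.33, 1.29 and 0.87 in clones and 0.77, 1.53 and 0.80 in IVF embryos, a difference of -0.19 ± 0.30 (SE). Nanog, a factor of the inner cell mass, differed by 0.12 ± 0.42, with clones at 3.86 to 4.85 and IVF embryos at 3.23 to 5.00. Cdx2, the trophectoderm factor, had 6.92, 6.13, 6.82, 5.90 and 5.95 in clones and 5.86, 7.20 and 5.95 in IVF embryos, a difference of 0.0080 ± 0.41 (SE). Tfap2c, another trophectoderm factor, had 0.017, 0.15, 0.14, 0.16 and 0.36 in clones and -0.26, 1.48 and 0.12 in IVF embryos, a difference of -0.28, or 0.24 without IVF embryo 2. The signs of these small differences depended on the scaling: quantile normalization gave -0.25 for Nanog and -0.25 for Cdx2.

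Sox2, which marks inner cells, had -1.62, -1.63, -1.66, 0.47 and -0.84 in clones 1 to 5 and 2.39, 5.55 and 4.29 in IVF embryos 1 to 3. Clone 4 was the highest clone and lay below the lowest IVF embryo. The difference of -5.13 ± 0.82 (SE) missed the threshold in the fit of 8 arrays (limma adjusted p = 0.0783) and passed in the fit of 51 arrays (adjusted p = 7.56e-08). Klf2, a factor of naive pluripotency, had -1.55, -1.24, -3.50, -0.53 and -0.68 in clones and 0, 1.24 and 0.40 in IVF embryos (difference -2.05, adjusted p = 0.384). Sall4, a zinc finger partner of Pou5f1, differed by -1.14, and the groups overlapped by 1 IVF embryo.

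Dppa3, a maternal and inner cell mass factor, and the nuclear receptor gene Nr5a2 went the other way, with differences of 0.58 and 1.05 (limma adjusted p = 0.338 and 0.388). Of the 23 pluripotency genes, 2 (8.70%) were higher and 3 (13.04%) lower at an unadjusted p of 0.05, against 4.17% and 5.83% of all genes, no gene passed the adjusted threshold, and the list median was -0.46 against 0.012 over all genes.

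**Figure D3:**
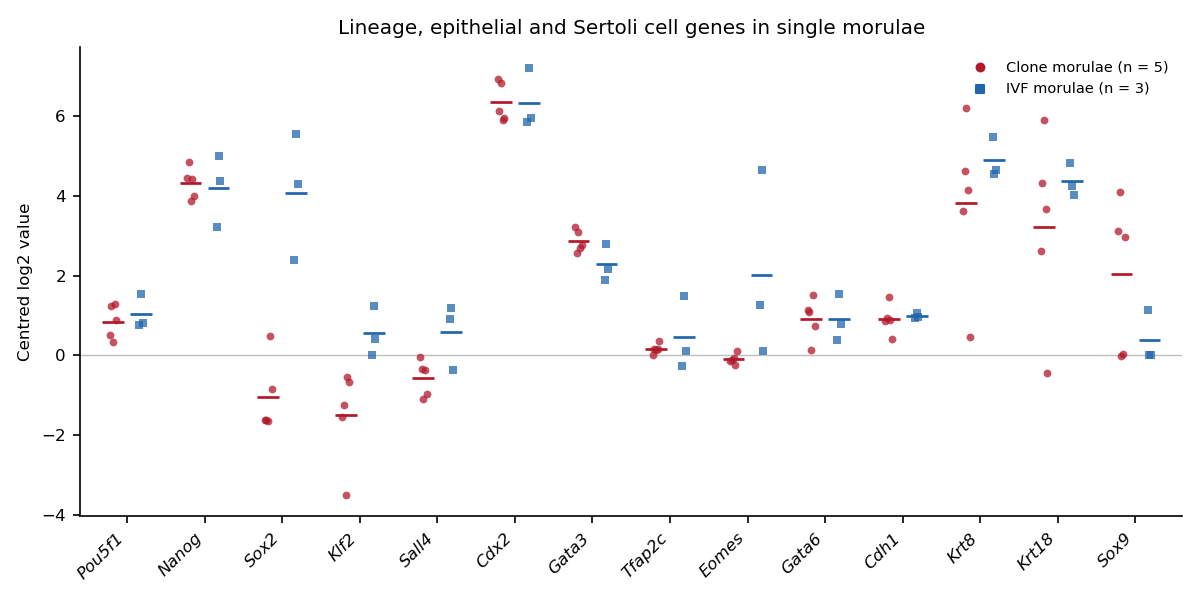
Centred log2 values of 14 lineage, epithelial and Sertoli cell genes in single morulae, with clones as red circles (n = 5), IVF embryos as blue squares (n = 3) and bars at group means. The groups do not overlap for Sox2 and Klf2, and clone 5 is the lowest point for Krt8 and Krt18.

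The keratin genes Krt8 and Krt18 varied widely among clones. Krt8 had 3.63, 4.61, 6.21, 4.14 and 0.46 in clones and 5.47, 4.56 and 4.64 in IVF embryos, and its partner Krt18 had 2.62, 4.32, 5.89, 3.66 and -0.44 in clones and 4.83, 4.25 and 4.02 in IVF embryos. Clone 5 was the lowest and clone 3 the highest of all 8 embryos for both keratins. The group differences were -1.08 and -1.16 (limma adjusted p = 0.836 and 0.836). Of 8 measured keratin and intermediate filament genes, the lamin gene Lmna alone was at an unadjusted p under 0.05, with 0, 1.19, 2.26, 0.15 and 1.36 in clones and -0.56, -1.61 and -1.62 in IVF embryos (adjusted p = 0.221).

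None of 31 measured genes of adherens junctions, tight junctions and polarity was at an unadjusted p under 0.05 in either direction, against 4.17% higher and 5.83% lower of all genes, and their median difference was 0.085. Cdh1, the E-cadherin of compaction, had 0.85, 0.94, 1.47, 0.89 and 0.41 in clones and 0.94, 1.06 and 0.95 in IVF embryos, a difference of -0.073 ± 0.22 (SE). In the fit of 51 arrays 1 of the 31 genes was called, higher in clones, against 1.2% of all genes called higher.

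Genes of the Hippo pathway, which reads cell position in the morula, differed in both directions without an adjusted call. Of 19 measured, 2 (10.5%) were higher and 4 (21.1%) lower at an unadjusted p of 0.05, against 4.17% and 5.83% of all genes. The kinase gene Lats2 had 2.02, 1.89, 1.60, 1.95 and 0.79 in clones against 0.072, -0.89 and -0.030 in IVF embryos (difference 1.93, limma adjusted p = 0.105). Wwc1 and Wwc2, upstream scaffolds of the Kibra type, differed by -1.81 and -1.67 (adjusted p = 0.24 and 0.215). Amot, the X-linked angiomotin that activates the pathway in inner cells, had 2.79, 2.04, -1.57, 4.43 and -0.67 in clones, where the range was wide, and 5.06, 5.03 and 4.94 in IVF embryos, where it was narrow (difference -3.60, limma adjusted p = 0.453). The 2 other Amot probe sets differed by 0.055 and 0.11.

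Among 21 trophectoderm genes 2 (9.52%) were higher and 1 (4.76%) lower at an unadjusted p of 0.05, against 4.17% and 5.83% of all genes. Gata3, a factor downstream of Tead4, had 3.22, 2.56, 3.10, 2.69 and 2.77 in clones and 1.89, 2.79 and 2.17 in IVF embryos, with a difference of 0.58 (limma adjusted p = 0.499). Lgals3, a galectin gene, had 2.43, 1.20, 2.61, 0.57 and 1.21 in clones and -0.090, -0.10 and -1.16 in IVF embryos, without overlap (difference 2.05, adjusted p = 0.241). Eomes, a T-box factor of trophoblast, was near 0 in all clones (-0.25 to 0.11) and at 1.26, 4.65 and 0.10 in IVF embryos, so only IVF embryo 2 was high.

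Of 18 primitive endoderm genes 2 (11.1%) were higher and 1 (5.56%) lower at an unadjusted p of 0.05, against 4.17% and 5.83% of all genes. Both type IV collagen genes were higher: Col4a1 had 3.07, 4.17, 4.07, 2.88 and 2.87 in clones and 1.78, 0.24 and 0.11 in IVF embryos, and Col4a2 had 3.79, 4.89, 5.34, 3.84 and 3.72 in clones and 1.58, 1.85 and -0.40 in IVF embryos (differences 2.70 and 3.30, limma adjusted p = 0.113 and 0.117). Lamc1, a laminin chain, ran the other way on the probe set used, with -0.83, 1.17, -1.35, 1.87 and -0.78 in clones and 1.95, 2.35 and 3.04 in IVF embryos (difference -2.43). The other Lamc1 probe set differed by 0.15. Gata6, a regulator of the lineage, differed by 0.020 ± 0.37 (SE), with overlapping groups. Of 11 sodium pump and cavitation genes, which build the blastocyst cavity, none was higher and 2 (18.2%, against 5.83% of all genes) were lower at an unadjusted p of 0.05, the water channel gene Aqp9 by -0.64 and Fxyd4 by -1.61.

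Several genes of glycolysis had higher values in clones. Of 19 measured genes of glucose transport and glycolysis, 5 (26.3%) were higher and none lower at an unadjusted p of 0.05, against 4.17% and 5.83% of all genes, and the list median was 0.072. Aldoa, which cleaves fructose bisphosphate, had 1.90, 2.60, 2.53, 2.35 and 2.73 in clones and 0.71, 1.17 and 0.91 in IVF embryos, a difference of 1.49 ± 0.20 (SE, limma adjusted p = 0.06). Every clone lay above every IVF embryo.

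Pyruvate kinase Pkm had 0.43, 1.42, 0.33, 0.27 and -0.54 in clones and -1.22, -1.78 and -0.80 in IVF embryos, and lactate dehydrogenase Ldha had 1.56, 1.50, 4.21, 2.34 and 0.75 in clones and -0.28, -0.40 and 0.37 in IVF embryos. Their differences were 1.65 and 2.18 (limma adjusted p = 0.24 and 0.385). Tpi1 differed by 3.05, with clones at -0.90 to 2.75 and IVF embryos at -3.00 to -1.15, again without overlap. None of these genes passed the adjusted threshold in the fit of 8 arrays. In the fit of 51 arrays 3 of the list were called higher, against 1.2% of all genes.

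Genes of endocytosis, lysosomes and the cell surface gave 6 of 22 (27.3%) higher and none lower at an unadjusted p of 0.05, against 4.17% and 5.83% of all genes, with a list median of 0.27. The transporter gene Abcg2 had 5.55, 6.36, 5.64, 3.46 and 5.74 in clones and 0.27, 2.09 and -0.17 in IVF embryos (difference 4.62, limma adjusted p = 0.089, and 8.25e-09 in the fit of 51 arrays). Tfrc, the transferrin receptor, had 0.030, 0.18, -0.24, -0.59 and 0.015 in clones and -1.68, -0.82 and -1.28 in IVF embryos (difference 1.14). The annexin genes Anxa2 and Anxa1 differed by 2.00 and 2.32, and neither overlapped between the groups. The mean of the 22 genes was 0.98 to 1.51 in the clones and 0.65 to 1.01 in the IVF embryos, with clone 1 below IVF embryo 2.

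Of 24 heat shock and unfolded protein genes, 3 (12.5%) were higher and 5 (20.8%) lower at an unadjusted p of 0.05, against 4.17% and 5.83% of all genes, none passed the adjusted threshold, and the list median was -0.22. The cytosolic chaperone gene Hspb1 had 1.38, 2.91, 3.67, 1.13 and 1.41 in clones and -1.40, -1.39 and -0.64 in IVF embryos, and the Hsp70 gene Hspa1b had 1.69, 1.20, 0.90, 1.08 and 2.30 in clones and -0.074, -0.37 and -1.59 in IVF embryos (differences 3.24 and 2.11, limma adjusted p = 0.126 and 0.147). Hsp90b1, a chaperone gene of the endoplasmic reticulum, had 0.047, -0.39, -1.28, 0 and -1.42 in clones and 1.89, 1.47 and 0.88 in IVF embryos (difference -2.02, adjusted p = 0.155), and the calreticulin gene Calr differed by -0.96. Xbp1, a transcription factor of the unfolded protein response, had 4.29, 4.80, 5.89, 5.55 and 4.99 in clones and 6.18, 7.21 and 6.35 in IVF embryos (difference -1.47, adjusted p = 0.266).

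Of 26 p53 targets and cell death genes 4 (15.4%) were higher and 2 (7.69%) lower at an unadjusted p of 0.05, against 4.17% and 5.83% of all genes. Pmaip1, which encodes the death protein Noxa, had 5.35, 5.83, 6.25, 4.79 and 5.07 in clones and 4.04, 0.060 and 3.10 in IVF embryos (difference 3.06, limma adjusted p = 0.286). Btg2, an antiproliferative gene, had 2.99, 4.33, 3.88, 2.00 and 4.61 in clones and -0.20, -0.95 and 3.50 in IVF embryos, of which IVF embryo 3 reached the clone range. The survival gene Mcl1 and the sestrin gene Sesn1 were lower, with differences of -0.43 and -0.67.

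Genes imprinted by histone H3K27 trimethylation, a mark that the oocyte places on the maternal alleles, included several with higher values in clones. Of 21 measured, 6 (28.6%) were higher and none lower at an unadjusted p of 0.05, against 4.17% and 5.83% of all genes, and the list median was 0.52 against 0.012 over all genes. Xist, described above, is a member. Gab1, an adaptor of growth factor receptors, had 1.81, 0.97, 1.39, 1.32 and 0.52 in clones and 0.056, -1.30 and 0.13 in IVF embryos (difference 1.57, limma adjusted p = 0.241). Mbnl2, a splicing regulator, had 7.09, 6.66, 8.00, 4.70 and 5.28 in clones and 4.82, -0.64 and 0.77 in IVF embryos, where embryo 1 reached the clone range (difference 4.69, adjusted p = 0.28). Jade1, a subunit of a histone acetyltransferase complex, had 0.61, -0.14, 0.61, 0.58 and -0.18 in clones and -1.03, -2.20 and -0.29 in IVF embryos (difference 1.47).

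Genes imprinted by DNA methylation were counted apart. Of 33 measured, 1 (3.03%) was higher and 2 (6.06%) lower at an unadjusted p of 0.05, against 4.17% and 5.83% of all genes, and the median difference was 0.010. Sgce, a paternally expressed sarcoglycan gene, had 3.87, 4.75, 3.62, 3.23 and 3.83 in clones and 1.83, 0 and 3.06 in IVF embryos (difference 2.23, limma adjusted p = 0.315). Gnas, a G protein gene with several imprinted transcripts, differed by -1.07, and Peg3, a paternally expressed zinc finger gene, by -1.74, with overlapping groups for both. The 4 other Gnas probe sets differed by 0.0080 to 0.048. Whether the lists themselves differ from each other was not tested.

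Of 45 chromatin and DNA methylation regulators, 1 (2.22%) was higher and 4 (8.89%) lower at an unadjusted p of 0.05, against 4.17% and 5.83% of all genes, and the list median was -0.42. Hdac3, a histone deacetylase, was the called member, with 0.89, 0.95, 1.10, 1.15 and 0.98 in clones and 1.68, 1.90 and 1.95 in IVF embryos, and fell by 0.82 ± 0.086 (SE, limma adjusted p = 0.0319). The histone demethylase gene Kdm4c had -0.88, -0.98, -0.92, -0.99 and -0.63 in clones and -0.19, -0.11 and 0.29 in IVF embryos (difference -0.88, adjusted p = 0.0746), and Kdm5b, which acts on H3K4, differed by 0.76. Kat2b, a histone acetyltransferase gene, had -3.04, -5.54, -1.31, -1.60 and -1.75 in clones and 0, -0.0075 and 0.58 in IVF embryos (difference -2.84).

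The DNA methyltransferases and their partner Trim28 did not pass. Dnmt1, the maintenance enzyme, had -0.45, -0.62, 0.39, 0.51 and -0.84 in clones and -0.69, -1.0 and -1.21 in IVF embryos (difference 0.77 ± 0.36). Dnmt3b, a de novo enzyme, differed by -0.78 ± 0.44, with clone 5 apart at -1.62, the other clones at -0.11 to 0.16 and the IVF embryos at 0.23 to 0.77. Trim28, which guards imprints, differed by 0.44 ± 0.19 (SE).

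Genes of DNA replication and the G1-S transition followed. Of 32 measured, 2 (6.25%) were higher and 6 (18.8%) lower at an unadjusted p of 0.05, against 4.17% and 5.83% of all genes, with a median of -0.056. E2f1, a transcription factor of the G1-S transition, had -1.94, -1.86, -2.12, -2.43 and -2.13 in clones and -1.05, -1.11 and -1.18 in IVF embryos (difference -0.98 ± 0.13, limma adjusted p = 0.06). The 2 other E2f1 probe sets differed by 0.0064 and 0.25. Gmnn, the inhibitor of origin licensing, and Mcm3, a subunit of the replicative helicase, differed by -0.44 and -1.03, and the polymerase clamp gene Pcna by 0.54. Of 25 mitosis and spindle genes 3 were higher and none lower, of 30 cytosolic ribosomal protein genes 4 were higher and none lower, and of 37 nucleolar ribosome biogenesis factors 1 was higher and 4 lower. Of 29 mitochondrial respiratory chain genes 4 were higher and 2 lower, and of 18 sterol synthesis genes 1 was higher and none lower. The shares higher were 12% for mitosis, 13.3% for ribosomal proteins, 2.70% for nucleolar factors, 13.8% for the respiratory chain and 5.56% for sterol synthesis, against 4.17% of all genes. The shares lower were 10.8% for nucleolar factors and 6.90% for the respiratory chain, against 5.83% of all genes.

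Genes of zygotic genome activation and the 2-cell stage gave none of 19 higher and 3 (15.8%) lower at an unadjusted p of 0.05, against 4.17% and 5.83% of all genes, with a list median of -0.40. Obox6, a homeobox gene, had -2.06, -1.19, -2.60, -0.23 and -2.56 in clones and 0.46, 0.78 and 0 in IVF embryos (difference -2.14, limma adjusted p = 0.258). Sp110, a nuclear body protein gene, differed by -3.51, and Dppa4, a chromatin factor, by -0.85. On its 2 other probe sets Sp110 differed by only -0.13 and 0.0049. Of 27 maternal oocyte factors none was higher and 2 (7.41%) were lower.

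Autosomal germline genes had values on both sides. Of 21 measured, 3 (14.3%) were higher and 4 (19.05%) lower at an unadjusted p of 0.05, against 4.17% and 5.83% of all genes. Dmc1, a meiotic recombinase gene, had 4.40, 4.37, 3.54, 3.30 and 3.12 in clones and 2.04, 1.81 and 1.46 in IVF embryos, and Ddx4, a germ cell helicase gene, had 1.76, 2.39, 1.20, 2.40 and 2.30 in clones and -0.12, 0.23 and -2.20 in IVF embryos (differences 1.98 and 2.71, limma adjusted p = 0.105 and 0.161). Asz1, of the piRNA pathway, was near -2 in all clones, with -2.07, -2.11, -2.08, -1.64 and -2.31, and at 1.91, 3.54 and 0 in IVF embryos (difference -3.86, adjusted p = 0.105). Stk31, a testis kinase gene, had -3.04, -2.37, -2.67, -3.15 and -3.06 in clones and -1.18, 0.99 and -0.66 in IVF embryos (difference -2.57).

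Markers of the donor cell type were examined because the nuclei came from Sertoli cells. Of 24 measured Sertoli cell genes, 3 (12.5%) were higher at an unadjusted p of 0.05 and none lower, against 4.17% and 5.83% of all genes, and the median difference was 0.0086. The higher members were Rhox5, Fabp5 and Clu. Fabp5, a fatty acid binding protein gene, had 2.29, 3.35, 3.05, 2.19 and 2.59 in clones and -0.43, 0.25 and 0.96 in IVF embryos (difference 2.43, limma adjusted p = 0.0783). Clu, the clusterin gene, had 0.43, 3.26, 3.75, 2.69 and 2.63 in clones and -1.20, -0.65 and -1.02 in IVF embryos (difference 3.51, adjusted p = 0.136).

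The mean over the 24 genes was 0.46 to 0.79 in the clones and 0.10 to 0.20 in the IVF embryos. The mean difference of 0.54 rests on Rhox5, Clu, Fabp5 and Sox9, whose differences of 8.07, 3.51, 2.43 and 1.66 add to more than the total over the list, while the median difference was 0.0086. Sox9, the defining transcription factor of Sertoli cells, had 3.11, 4.09, -0.017, 0.019 and 2.96 in clones and 1.13, -0.0054 and 0.00097 in IVF embryos. Clones 1, 2 and 5 were thus high and clones 3 and 4 near 0 on the probe set used (difference 1.66, limma adjusted p = 0.803). On its 2 other probe sets Sox9 differed by only -0.013 and 0.18. Other defining Sertoli cell genes were near 0 in both groups, with Amh at -0.0098 to 0.015 in clones and -0.0042 to 0.0014 in IVF embryos, Fshr at -0.0093 to 0.015 in clones and -0.0032 to 0 in IVF embryos, and Wt1 at -0.050 to 0.079 in clones and -0.030 to -0.013 in IVF embryos. On this scale 0 is the middle of the 51 arrays and not an absence of transcript. The part of donor cell transcripts in the called differences was not tested. The means of 15 other testis somatic genes were 0.0030 to 0.25 in clones and 0.061 to 0.39 in IVF embryos, and those of 18 sperm and late germ cell genes -0.15 to 0.065 in clones and -0.11 to -0.034 in IVF embryos. Those of 15 cumulus cell genes were -0.017 to 0.41 in clones and -0.14 to -0.051 in IVF embryos, with clone 5 highest. None of the cumulus and other testis somatic genes had an unadjusted p below 0.05, and 1 sperm gene did, higher in clones.

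Clones differed among themselves, and so did IVF embryos. The root mean square deviation of an embryo from its group mean over all genes was 0.492, 0.505, 0.747, 0.608 and 0.612 in clones 1 to 5, against 0.482, 0.551 and 0.518 in IVF embryos 1 to 3. A deviation from a group's own mean is expected to be smaller in a group of 3 than in a group of 5. The clone and IVF values are therefore not directly comparable. Clone 3 lay farthest from its group. An SD of at least 1.5 among clones with an SD of at most 0.5 among IVF embryos was found for 183 of 18193 genes, the reverse for 66, and a high SD in both for 93. The SD of IVF embryos rests on 3 values and that of clones on 5. Among the 183 genes, clones 1 to 5 were the highest clone in 14, 26, 87, 39 and 17 and the lowest in 20, 15, 41, 65 and 42. These genes were chosen for a wide clone spread, so a clone far from its group is often an extreme among them. The counts are therefore no separate result about clone 3 or clone 4.

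The genes of this kind with the widest clone spread, chosen after their values were seen, included growth and lineage genes. Hmga2, a chromatin protein of growing tissues, had -0.48, -3.81, -7.35, 1.99 and -5.85 in clones and 2.76, 2.75 and 2.33 in IVF embryos. Tdgf1, the Nodal co-receptor Cripto, had 0.58, -1.97, -5.46, 1.41 and 0.27 in clones and 1.54, 1.19 and 1.15 in IVF embryos, so only clones 2 and 3 were far below the others. Cald1, a caldesmon gene, had 3.45, 6.01, 7.49, -0.026 and 0.021 in clones and -0.041, -0.041 and 0.41 in IVF embryos, with clones 1 to 3 high. Tfpi, an inhibitor of blood coagulation, had -0.32, 0.081, 7.82, -0.35 and -0.021 in clones and -0.33, -0.28 and -0.17 in IVF embryos and was high in clone 3 alone.

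Clone and IVF morulae overlapped in their position between the 8-cell stage and the blastocyst. Each morula was placed on an axis of 4437 genes that differed at least 2-fold between IVF 8-cell embryos and IVF blastocysts, on which 0 is the IVF 8-cell mean and 1 the IVF blastocyst mean. The clones were at 0.518, 0.563, 0.634, 0.523 and 0.489, against 0.518, 0.477 and 0.519 in the IVF embryos. The means were 0.545 ± 0.056 in clones (SD, n = 5) and 0.505 ± 0.024 in IVF embryos (SD, n = 3), a difference of 0.041 that did not pass an exact two-sided permutation test (p = 0.214). A split of the axis made after the values were seen gave 0.398 in clones and 0.396 in IVF embryos for the 2559 rising genes (exact permutation p = 0.893), and 0.767 and 0.668 for the falling genes (exact permutation p = 0.107). Clone 8-cell embryos were at 0.189 to 0.311, IVF 8-cell embryos near 0, and clone blastocysts at 0.951 to 0.992. The IVF 8-cell embryos and IVF blastocysts served to choose the axis genes and to set 0 and 1. Their positions are therefore not comparable with those of clones of the same stages.

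**Figure D4:**
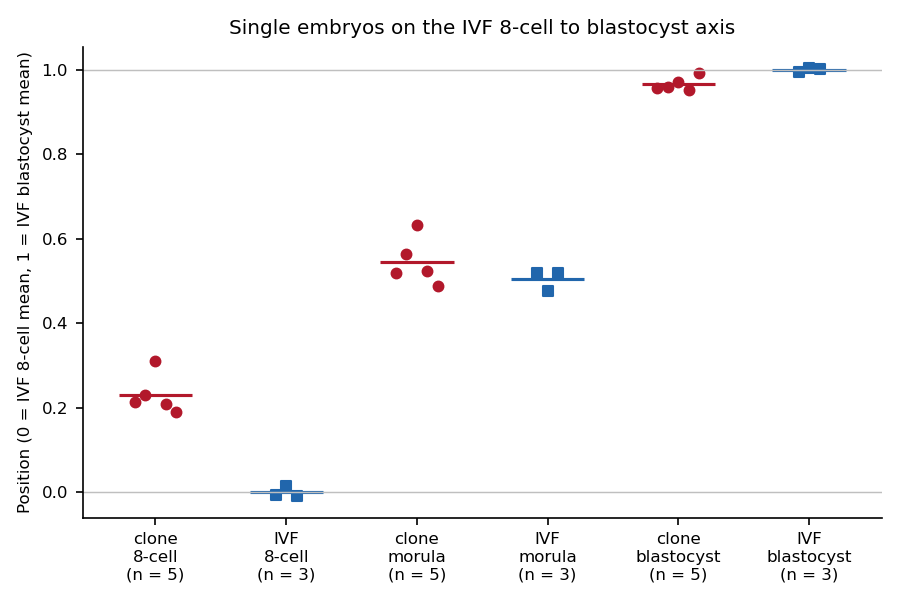
Position of single embryos on the axis from the IVF 8-cell mean (0) to the IVF blastocyst mean (1), averaged over 4437 genes. IVF 8-cell embryos and IVF blastocysts built the axis, so clones of these stages are not comparable with them. Clones are red circles (n = 5 a stage), IVF embryos blue squares (n = 3 a stage) and bars group means; clone morulae span 0.489 to 0.634 and IVF morulae 0.477 to 0.519.

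The clone difference at the morula stage was tested directly against that at the stage before. In the fit of 51 arrays the difference of differences passed an adjusted p of 0.05 for 1030 genes (5.66%), of which 779 (4.28%) were more positive at the morula and 251 (1.38%) more negative. With the 16 arrays of these stages alone 396 passed, 326 more positive and 70 more negative. Genes called lower in clones at the 8-cell stage, 813 in number, had a median difference of -0.22 at the morula, against -2.06 at the 8-cell stage. They were chosen by their 8-cell values, which enlarges the 8-cell median, so these medians do not measure a change between the stages. Of the 813 genes, 138 (17.0%) were again lower at an unadjusted p of 0.05, against 5.83% of all genes. Of 391 genes called higher at the 8-cell stage, 35 (8.95%) were again higher, against 4.17% of all genes.

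The genes with the largest positive shift were lower in clones at the 8-cell stage. Prmt2, an arginine methyltransferase gene, differed by -4.71 at the 8-cell stage and 3.90 at the morula, a difference of differences of 8.61 ± 0.83 (SE, limma adjusted p = 4.69e-09). It had -1.02, 0, 0.46, -1.79 and -0.54 in clone and -3.82, -5.17 and -4.45 in IVF morulae. Zfp352, a gene of the 2-cell embryo, and Pax6, an eye and brain factor, differed by -5.85 and -5.82 at the 8-cell stage and by 0.012 and 0.015 at the morula, where both groups were near 0. Tgds and Mid1 shifted by 6.77 and 6.93. At the morula itself the groups overlapped for Mid1 (difference 3.08, limma adjusted p = 0.602 in the fit of 8 arrays). Its 2 other probe sets differed there by -0.057 and 0.026. In the other direction Smim38 differed by 0.93 at the 8-cell stage and -4.36 at the morula, and Fbxl17, an F-box protein gene, by 2.71 and -3.09 (limma adjusted p of the difference of differences 1.39e-05 and 0.00266). The other Fbxl17 probe set differed by 0.0023 at the morula.

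**Figure D5:**
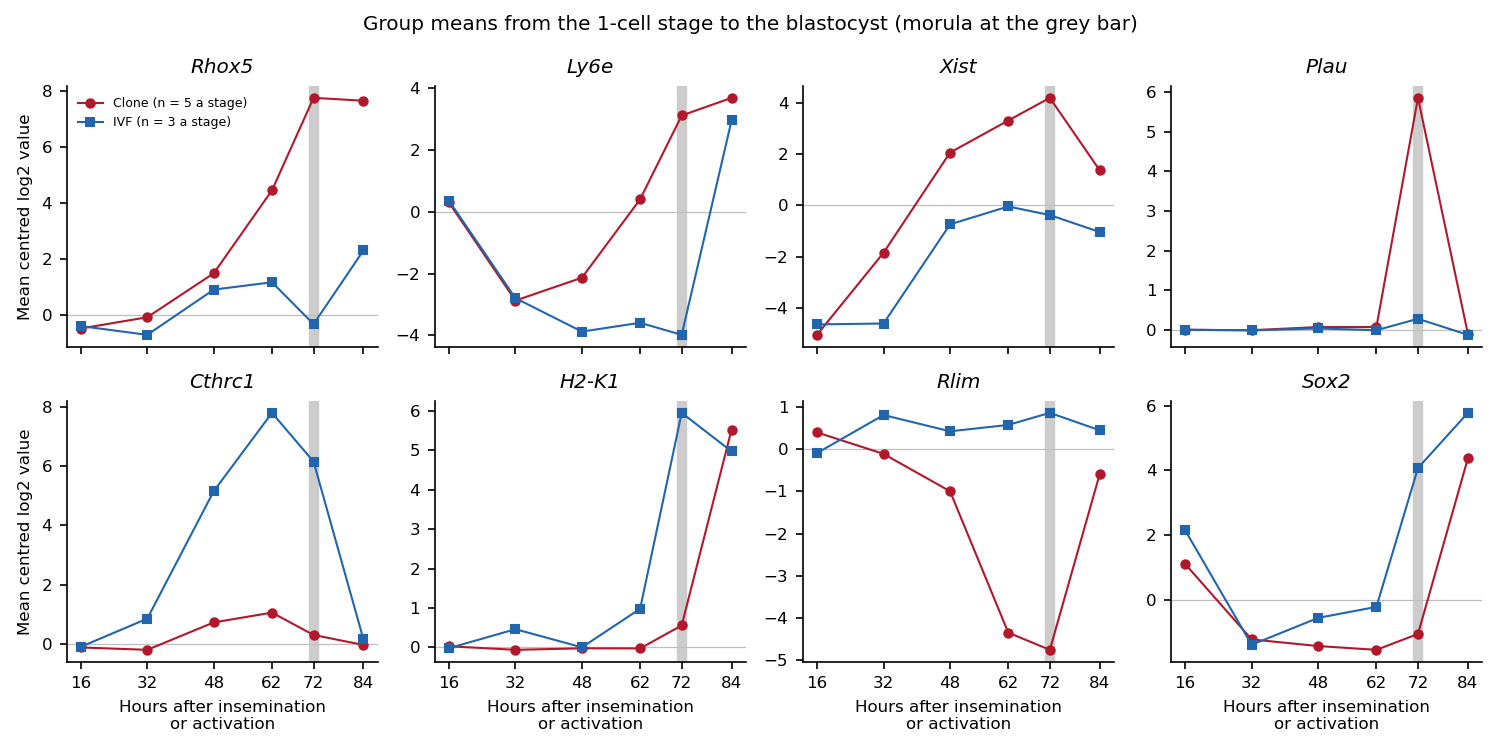
Group means of 8 genes on the centred log2 scale at 16, 32, 48, 62, 72 and 84 hours after insemination or activation, with clones as red circles (n = 5 a stage), IVF embryos as blue squares (n = 3 a stage) and the morula at the grey bar. Lines join means of different single embryos; Plau is high in clones at the morula alone, and at the blastocyst Ly6e is at 3.69 in clones and 2.96 in IVF embryos and H2-K1 at 5.53 and 4.97.

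Against the blastocyst, 295 genes (1.62%) passed, 116 (0.638%) more positive at the morula and 179 (0.984%) more negative. Ly6e had clone and IVF means of 3.12 and -3.98 at the morula and 3.69 and 2.96 at the blastocyst, a difference of differences of 6.37 ± 1.04 (SE, limma adjusted p = 0.00012). H2-K1 had 0.56 and 5.95 at the morula and 5.53 and 4.97 at the blastocyst (-5.95 ± 0.73, adjusted p = 5.81e-07). Nuclear strain and method of production cannot be told apart at either stage.

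Cthrc1 averaged 0.31 in clones and 6.15 in IVF embryos at the morula and -0.032 and 0.16 at the blastocyst (-5.66 ± 1.13, limma adjusted p = 0.00229). Rhox5 had 7.65 in clones and 2.31 in IVF embryos at the blastocyst, and a difference of differences of 2.73 that did not pass (adjusted p = 0.623).

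Plau, the urokinase gene, had group means near 0 in clones at the 5 other stages and in IVF embryos at all 6. Clone morulae had 6.47, 7.90, 6.83, 5.38 and 2.71 and IVF morulae -0.0061, 0.64 and 0.20, a difference of 5.58 (limma adjusted p = 0.125 in the fit of 8 arrays) that exceeded the blastocyst difference by 5.55 (adjusted p = 3.2e-07). Ndrg1, a gene known to be induced by low oxygen, had 2.60, 3.66, 1.42, 0.95 and 1.95 in clone and -0.94, -2.19 and -3.32 in IVF morulae and exceeded its blastocyst difference by 5.29 (adjusted p = 0.00275). Efemp1, a fibulin gene, had 6.17, 7.20, 6.49, 1.25 and 3.25 in clone and 0, 0.17 and 0.12 in IVF morulae (5.01, limma adjusted p = 0.000694). App, the amyloid precursor gene, and Glipr1 differed by 5.78 and 2.46 at the blastocyst and by -0.23 and -2.65 at the morula.

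Of the genes called at the blastocyst stage, 517 higher and 608 lower in clones, 90 (17.4%) and 126 (20.7%) lay on the same side at the morula at an unadjusted p of 0.05, against 4.17% and 5.83% of all genes. The embryos of the 2 stages are different individuals. Of these genes, 2 of the higher and 6 of the lower were called at the morula as well, against 0.165% of all genes.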

How the data were processed

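Expression was measured in single embryos on Affymetrix arrays after 2 rounds of amplification, per the labels' protocols. The deposited log2 values were made by RMA, per the submitters' processing notes, which give no version. As deposited, 94.3% of probe sets have exactly 1 array at 0, and that array ranks 25th to 27th of 51, so the values were centred per probe set and kept no absolute level. Of 45101 probe sets, 34945 had 1 gene symbol, 932 several and 9160 none, and for each of 18193 genes the probe set that varied most over the 51 arrays was used, of which 18032 matched RefSeq (GRCm38.p6).

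Clones were compared with IVF embryos in limma 3.58.1 (R 4.3.3) on the 8 morula arrays, with Benjamini-Hochberg adjustment over all genes and a threshold of 0.05. Differences between stages were interaction terms in 1 fit of 51 arrays. Single values per embryo were compared by exact two-sided permutation over 56 splits (Python 3.11.15, scipy 1.17.1). The members of the comparison and the gene lists were chosen with earlier results of these data known. Named genes were the 14 largest called rises and falls with groups that do not overlap, up to 5 members of each list by p, a set of lineage and donor cell genes followed whatever their values, and the 5 largest stage differences each way, leaving out genes known only by a clone or locus number. The Sertoli cell genes Amh, Fshr and Wt1 and the X-linked Bex and Tceal genes were added after their values were seen. The fits were tested on simulated data. Alternatives were normalization, gene filter, probe set choice, covariates, array weights, the replicate block and leaving out each embryo. The p-values measure the spread between these single embryos, whose parents and culture drops are not given in the sources used here.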

Additional observations from a re-analysis of the deposited data

Results flagged for a closer look

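In 11 genes and on both X-linked summaries, 1 of the 5 clone morulae stood apart from the other clones by Dixon's criterion, which chance alone meets in about 1 in 20 groups. The number of genes screened is not given here, so the 11 cannot be set against that rate. Arid3a and Magea5 were near 0 in every clone, so their deviations are small. Clone 4 was that embryo for Fos at 2.33, H2-K1 at 2.15, Rps6ka6 at -3.75, Abcg2 at 3.46, Arid3a at -0.072 and, on the X-linked minus autosomal scale, for the median at -0.0087 and the mean at -0.28. The others were Gosr2 at 2.37, Cthrc1 at 1.33, Fgd1 at -2.34, Dnmt3b at -1.62, Magea5 at 0.29 and Wwc1 at -1.10.

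Differences between stages were tested as differences of differences in the fit of 51 arrays, each past an adjusted p of 0.05 in limma. Relative to the 8-cell stage the clone minus IVF difference at the morula was more positive for Prmt2 by 8.61, Mid1 by 6.93, Tgds by 6.77, Zfp352 by 5.86, Pax6 by 5.83, Trim2 by 3.67, Rnpep by 2.23, Gosr2 by 2.21 and Cript by 1.35. The shift was negative for Fbxl17 at -5.80, Fam122b at -5.72, Etl4 at -5.56, Smim38 at -5.29, Zfp667 at -4.98, Rab38 at -4.95, H2-K1 at -4.39, Mpped2 at -3.21, Dmd at -2.57, Pitx1 at -2.44 and Ube2d2a at -1.18.

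Relative to the blastocyst it was more positive for Mid1 by 6.46, Ly6e by 6.37, Plau by 5.55, Ndrg1 by 5.29 and Efemp1 by 5.01. It was negative for Ankrd33b at -6.45, App at -6.00, H2-K1 at -5.95, Cthrc1 at -5.66, Glipr1 at -5.11, Pitx1 at -1.27 and Ube2d2a at -1.13.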

How the results depend on the processing

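The number of genes called at the morula stage, 30 in the analysis reported, was 608 in 1 fit of all 51 arrays, 211 with array weights, 120 without the 30% of genes with the lowest SD, 14 with the 3'/5' difference and 7 with the hybridization controls as covariate, and 6 to 65 with 1 embryo left out. Quantile normalization gave 8 higher and 15 lower calls. With the replicate block no gene passed in limma (0 calls, 1730 genes at an unadjusted p under 0.05), and same-numbered embryos had residual correlations of 0.037, -0.016 and 0.10, so the numbers do not pair the embryos. Of the alternatives, the block was where Rhox5 and Ly6e lost their calls. The 30 genes all passed with array weights and without the lowest 30%. The difference from the 8-cell stage gave 396 calls on 16 arrays and 849 to 1203 with 1 embryo left out, and that from the blastocyst 258 to 326. The X-linked shift passed as a mean (-0.351, exact permutation p = 0.0357) and as a median without the genes of lowest SD (-0.111, exact permutation p = 0.0357). Without IVF embryo 2, a check added after seeing the data, these were -0.218 and -0.013, each with an exact permutation p of 0.0952, the smallest that 5 against 2 allows.

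Signs turned only among small differences of lineage genes that passed no threshold. Quantile normalization gave -0.25 for Nanog and -0.25 for Cdx2, and centring each array -0.0012 for Cdx2. The 3'/5' covariate gave -0.055 for Cdx2 and the hybridization covariate 0.018 for Pou5f1. Averaging probe sets gave -0.012 for Gata6, and the replicate block -0.12 for Gata6 and 0.10 for Cdh1. With 1 embryo left out, Pou5f1 ran over -0.32 to 0.062, Nanog -0.37 to 0.52, Cdx2 -0.23 to 0.44, Tfap2c -0.63 to 0.24, Gata6 -0.24 to 0.34 and Cdh1 -0.21 to 0.052. The cause was not tested. The 5 clone and 3 IVF arrays limit the precision.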

Other observations

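Some X-linked genes with higher values in clones belong to the Bex and Tceal families. They were chosen after their values were seen. Bex3 had 1.17, 3.63, 4.13, 1.10 and 3.25 in clone morulae and -0.98, 0.0026 and -1.05 in IVF morulae, and Tceal8 had 1.50, 0.29, 1.32, 0.88 and -0.21 in clone and -1.31, -0.79 and -4.17 in IVF morulae, both without overlap. Their differences were 3.33 and 2.84 (limma adjusted p = 0.212 and 0.285). Bex2 and Tceal1, of the same families, differed by -0.062 and 0.016.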
